A study of Mus musculus with 17 samples.

Results

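The immunoglobulin adhesion genes described here are 4 that the Dp16 duplication carries in an extra copy, Dscam, Ncam2, Jam2 and Cxadr, and the paralogs Dscaml1, Ncam1 and Jam3, which lie elsewhere. They were taken by gene name, which found 7 of 7 among the 55385 genes of the deposited tables, and 7 of 7 passed the filter on low counts that left 18983 genes for testing. Polyadenylated RNA of the hippocampus was sequenced from 17 mice, 1 library per mouse, aged 17.1 to 18.0 weeks and listed with no treatment. Dp16_2xIFNRs mice (n = 5, 3 females and 2 males) carry the same duplication, but their interferon receptor genes are back at the normal dosage. Dp16 mice (n = 6, 3 females and 3 males) carry an extra copy of part of chromosome 16, a region related to human chromosome 21, and serve as a model of Down syndrome. WT mice (n = 6, 3 females and 3 males) are C57BL/6J. The duplication is in every cell of a mouse from conception, and the labels do not give litters or the background strain of the duplication mice.

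Adhesion molecules of the immunoglobulin superfamily hold cells together through extracellular immunoglobulin domains, which bind a like molecule or a different partner on the next cell. DSCAM and DSCAML1 act in the self-avoidance and spacing of dendrites and cell bodies, as described in the mouse retina, and DSCAM also serves as a netrin receptor. NCAM1 and NCAM2 act in the outgrowth and bundling of axons and at synapses, and NCAM1 is the main carrier of polysialic acid in the brain. JAM2 and JAM3 bind each other at tight junctions of endothelium and epithelium, and JAM2 is also found on the cell bodies and dendrites of neurons, where it inhibits myelination. CXADR, the receptor for coxsackievirus and adenoviruses, is an adhesion protein of epithelial tight junctions and of the developing brain.

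The triplicated genes lie over much of the length of the segment (GRCm38 chromosome 16, 75540514 to 97962622), which holds 384 genes of the tables. Cxadr (ENSMUSG00000022865.14) lies at 78301489 to 78359774 on the plus strand, and Ncam2 (ENSMUSG00000022762.18) at 81200697 to 81626828 on the plus strand. Jam2 (ENSMUSG00000053062.16) lies at 84774123 to 84825928 on the plus strand, and Dscam (ENSMUSG00000050272.10) at 96590840 to 97170752 on the minus strand. The paralogs all lie on chromosome 9: Jam3 (ENSMUSG00000031990.15) at 27097384 to 27155421 on the minus strand, Dscaml1 (ENSMUSG00000032087.10) at 45426628 to 45753712 on the plus strand and Ncam1 (ENSMUSG00000039542.16) at 49502136 to 49798925 on the minus strand. Dscam spans 579.9 kb and Ncam2 426.1 kb, against 51.8 kb for Jam2 and 58.3 kb for Cxadr.

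Promoter sequences from RefSeq (GRCm38.p6) were matched for 2 of the 7 genes, Dscam and Ncam2, which are the pair of neural adhesion genes with the longest gene bodies among the triplicated ones. The 250 bases before each start site are shown because both genes rose in the duplication mice and the windows let their base composition be compared. Capitals mark the GC box (GGGCGG on either strand, which reads CCGCCC on the other).
Dscam: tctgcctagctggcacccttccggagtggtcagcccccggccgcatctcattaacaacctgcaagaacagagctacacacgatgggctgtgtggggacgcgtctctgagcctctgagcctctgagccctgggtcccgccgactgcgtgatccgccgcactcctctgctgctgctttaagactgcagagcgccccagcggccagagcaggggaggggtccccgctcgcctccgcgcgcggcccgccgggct
Ncam2: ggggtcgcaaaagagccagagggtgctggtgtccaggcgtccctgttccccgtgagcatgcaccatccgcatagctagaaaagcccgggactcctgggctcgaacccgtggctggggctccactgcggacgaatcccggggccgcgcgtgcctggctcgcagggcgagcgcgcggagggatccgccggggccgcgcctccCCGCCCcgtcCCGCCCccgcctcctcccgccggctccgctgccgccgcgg
The Dscam window (chr16:97170736-97170985, minus strand) has 68.0% G and C and 21 CpG dinucleotides, and the Ncam2 window (chr16:81200447-81200696, plus strand) has 75.2% and 32. The median over 32817 promoter windows of the same length was 6 CpG. A GC box was found 2 times in the Ncam2 window and not in the Dscam window, and 32.7% of all windows hold one. TATAAA and CCAAT, searched on both strands, were in neither window, and 12.4% and 33.8% of all windows hold them. These matches describe letters only.

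Total counts lay between 30.4 and 33.1 M (M, mega) per library, and each of the 7 genes was counted well above the low end of the tables. The lowest count of any of them in any library was 570, for Cxadr, and the highest was 7676, for Ncam1. Summed over the 17 libraries, Ncam1 had 120706 counts, Ncam2 65119, Dscam 48565, Dscaml1 42927, Jam2 36859, Cxadr 17471 and Jam3 16066. CPM here are counts per M of the library total after TMM scaling, which compare a gene between mice. Values in RPKM are the deposited reads per kilobase and M reads, which also compare genes with each other. Markers of neurons were high in all groups: the summed level of 6 neuronal markers was 5402 to 6502 CPM in Dp16_2xIFNRs, 5840 to 6886 CPM in Dp16 and 5406 to 6991 CPM in WT. The 5 markers of hippocampal regions summed to 779 to 980 CPM, 800 to 948 CPM and 737 to 817 CPM in the same groups. In whole tissue, fewer cells of a type and less RNA per cell cannot be told apart.

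All 4 triplicated genes had higher means in both duplication groups than in WT, and the paralogs overlapped between the groups. Dscam had 98.1, 89.5, 99.9, 102.8 and 108.0 CPM in the 5 Dp16_2xIFNRs mice. In Dp16 mice Dscam ranged over 99.0 to 117.7 CPM with a median of 104.8, against 58.2 to 74.9 CPM with a median of 65.1 in WT mice. Every mouse with the duplication lay above every WT mouse for Dscam, and the lowest of them, at 89.5 CPM, was a Dp16_2xIFNRs mouse. Such separation, here and for the genes below, was not counted over other segment genes and is not shown to be particular to these. The group means were 99.7 ± 6.78 CPM in Dp16_2xIFNRs, 106 ± 7.51 CPM in Dp16 and 65.7 ± 5.71 CPM in WT (SD, n = 5, 6 and 6).

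Ncam2 had 121.6, 144.0, 122.6, 158.0 and 140.2 CPM in Dp16_2xIFNRs mice. In Dp16 mice Ncam2 ranged over 133.4 to 150.8 CPM with a median of 148.3, against 59.7 to 108.3 CPM with a median of 79.2 in WT mice. The groups with the duplication again lay wholly above WT, and the WT mice were the most spread. The coefficient of variation of Ncam2 was 11.2% in Dp16_2xIFNRs, 4.56% in Dp16 and 21.9% in WT, with means of 137 ± 15.4, 145 ± 6.64 and 82.3 ± 18.0 CPM. The difference in spread was not tested.

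Jam2 had 83.7, 80.3, 72.5, 76.3 and 91.0 CPM in Dp16_2xIFNRs mice. In Dp16 mice Jam2 ranged over 64.1 to 87.7 CPM with a median of 81.2, against 43.8 to 51.5 CPM with a median of 47.0 in WT mice. No mouse of either duplication group reached down to the WT values, and the WT mice were close together, with a mean of 47.3 ± 2.83 CPM (n = 6). The means were 80.8 ± 7.12 CPM in Dp16_2xIFNRs (n = 5) and 79.0 ± 8.85 CPM in Dp16 (n = 6).

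Cxadr, the least abundant of the triplicated genes, was the one whose groups came closest. It had 33.8, 47.4, 46.01, 44.9 and 30.9 CPM in Dp16_2xIFNRs mice. In Dp16 mice Cxadr ranged over 26.5 to 43.3 CPM with a median of 33.4, against 18.2 to 29.7 CPM with a median of 23.0 in WT mice. All 5 Dp16_2xIFNRs mice and 5 of 6 Dp16 mice lay above the highest WT mouse, and the sixth, Dp16 replicate 6, lay among the WT values. The coefficient of variation was 18.8%, 17.3% and 19.8% in Dp16_2xIFNRs, Dp16 and WT, so Cxadr varied between mice about equally in the 3 groups.

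**Figure D1:**
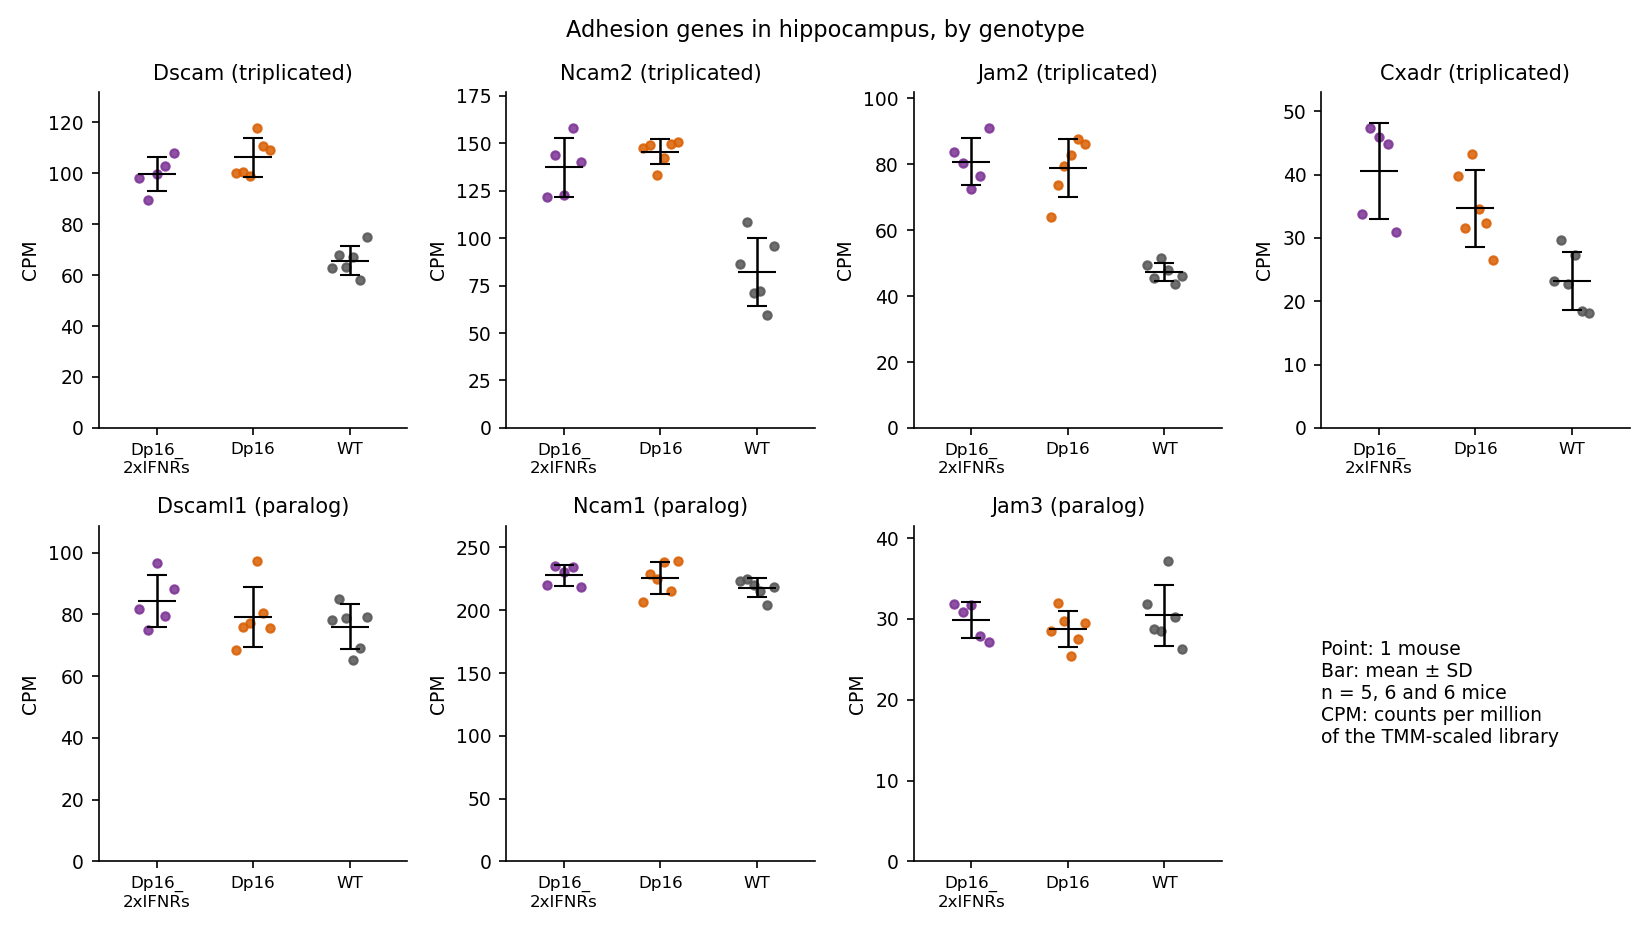
Level of each gene in each mouse (vertical axis, CPM from 0) for Dp16_2xIFNRs, Dp16 and WT, with black bars for mean ± SD. The points of Dscam, Ncam2 and Jam2 in both duplication groups lie above all WT points, 1 Dp16 mouse overlaps WT for Cxadr at 26.5 CPM, and the 3 paralogs overlap in every group.

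The paralogs overlapped between the groups. Ncam1 had 219.8, 235.6, 230.4, 234.7 and 218.2 CPM in Dp16_2xIFNRs mice, 206.8 to 238.8 CPM (median 226.8) in Dp16 mice and 204.0 to 224.8 CPM (median 219.5) in WT mice. Dscaml1 had 81.8, 75.1, 96.7, 79.6 and 88.4 CPM in Dp16_2xIFNRs mice, 68.4 to 97.2 CPM (median 76.6) in Dp16 mice and 65.2 to 84.9 CPM (median 78.6) in WT mice. Jam3 had 31.8, 30.9, 31.7, 27.8 and 27.2 CPM in Dp16_2xIFNRs mice, 25.4 to 32.0 CPM (median 29.0) in Dp16 mice and 26.2 to 37.1 CPM (median 29.5) in WT mice. For Dscaml1 the single highest mouse was a Dp16 mouse, and for Jam3 it was a WT mouse.

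Per length, Ncam1 was the most abundant of the 7 genes in every group and Cxadr the least. Mean RPKM in Dp16_2xIFNRs was 32.6 for Ncam1, 15.9 for Ncam2, 15.5 for Jam3, 13.5 for Jam2, 12.3 for Dscaml1, 11.5 for Dscam and 5.77 for Cxadr. In Dp16 the order was Ncam1 at 31.6, Ncam2 at 16.5, Jam3 at 14.7, Jam2 at 12.9, Dscam at 12.02, Dscaml1 at 11.4 and Cxadr at 4.83 RPKM. In WT the order was Ncam1 at 30.9, Jam3 at 15.7, Dscaml1 at 11.04, Ncam2 at 9.45, Jam2 at 7.84, Dscam at 7.53 and Cxadr at 3.28 RPKM. Neighbours from Ncam2 down to Dscam or Dscaml1 overlapped in range between mice in the duplication groups, as did Dscaml1 with Ncam2, Ncam2 with Jam2 and Jam2 with Dscam in WT. The order of the middle genes rests on the length used. The deposited RPKM imply a length of 1942 bases for Jam3, while all its exons in GENCODE M21 cover 3200 bases. With the exon length, Jam3 came to 9.43, 8.91 and 9.55 in Dp16_2xIFNRs, Dp16 and WT, below Jam2 at 13.5 and 12.9 in the duplication groups and above it at 7.84 in WT.

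**Figure D2:**
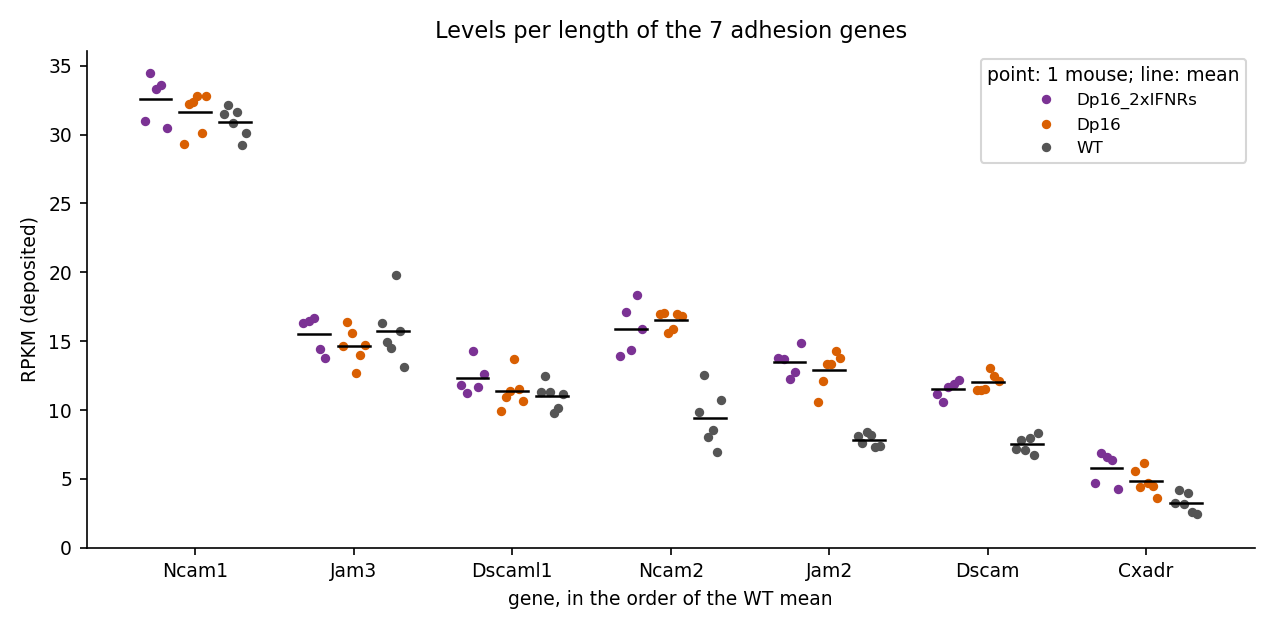
Deposited RPKM (vertical axis) of the 7 genes in each mouse, ordered by the WT mean, with a line for the mean of each group. Ncam1 lies near 31 to 33 on average in every group, Cxadr below 6, and Ncam2 stands above Jam3 in the duplication groups and below it in WT by mean.

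The comparison of Dp16 with WT asked what the extra copy did to the level of each gene. Of 18983 genes tested with edgeR's quasi-likelihood test, 0.537% were called at an adjusted p under 0.05 and 0.458% were called as higher. Among the 7 genes, 3 were called, all triplicated and all higher, and within the segment 62 of 122 tested genes (50.8%) were called. Dscam rose by a log2 fold change of 0.69 ± 0.06 (SE, edgeR adjusted p = 8.81e-07), a fold of 1.61 with a 95% interval of 1.48 to 1.76. Ncam2 rose by 0.83 ± 0.11 (edgeR adjusted p = 0.000233), a fold of 1.77 with an interval of 1.51 to 2.08. Jam2 rose by 0.74 ± 0.07 (edgeR adjusted p = 5.69e-06), a fold of 1.67 with an interval of 1.499 to 1.86. Each of these was higher in 6 of 6 Dp16 mice than in any WT mouse. How many other tested genes, in the segment or outside it, separated from WT in this way in either duplication group was not counted.

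For Cxadr the log2 fold change was 0.58 ± 0.14, which missed the threshold (edgeR adjusted p = 0.0883, unadjusted p = 0.00065), a fold of 1.49 with an interval of 1.22 to 1.83. DESeq2 called it (adjusted p = 0.00652), and its adjusted p lay between 0.00142 and 0.218 over 33 alternatives, of which 6 called it, 1 of them the fit without WT replicate 4 (edgeR adjusted p = 0.04997). All 6 Dp16 mice stood above the WT mean. The paralogs had log2 fold changes of 0.06 ± 0.08 for Dscaml1 (edgeR adjusted p = 0.875), 0.05 ± 0.04 for Ncam1 (edgeR adjusted p = 0.757) and -0.08 ± 0.08 for Jam3 (edgeR adjusted p = 0.785). EdgeR called 0 of these 3, and 0 had an unadjusted p under 0.05. DESeq2 and limma-voom also called 0. Their fold intervals were 0.922 to 1.17 for Dscaml1, 0.972 to 1.10 for Ncam1 and 0.843 to 1.06 for Jam3. The sign for Dscaml1 was not stable: without Dp16 replicate 4, its highest mouse, the log2 fold change was -0.01.

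Dp16_2xIFNRs against WT put the same question to mice whose receptor genes are at the normal dosage, and shares its WT libraries with the comparison above. There 0.98% of all tested genes were called and 0.637% were called as higher, and 66 of 122 segment genes (54.1%) were called. All 4 triplicated genes were called as higher. Jam2 rose by 0.77 ± 0.08 (edgeR adjusted p = 7.79e-06), a fold of 1.71 with a 95% interval of 1.53 to 1.91. Dscam rose by 0.61 ± 0.06 (edgeR adjusted p = 7.79e-06), a fold of 1.53 with an interval of 1.40 to 1.67. Ncam2 rose by 0.74 ± 0.12 (edgeR adjusted p = 0.00159), a fold of 1.67 with an interval of 1.41 to 1.97. Cxadr rose by 0.80 ± 0.15 (edgeR adjusted p = 0.00712), a fold of 1.74 with an interval of 1.41 to 2.16, and its call held under all 33 alternatives. Log2 fold changes of the paralogs were 0.15 ± 0.09 for Dscaml1 (edgeR adjusted p = 0.376), 0.07 ± 0.05 for Ncam1 (edgeR adjusted p = 0.475) and -0.03 ± 0.08 for Jam3 (edgeR adjusted p = 0.892). None of the 3 was called (edgeR 0, DESeq2 0, limma-voom 0), and 0 had an unadjusted p under 0.05.

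Dp16_2xIFNRs against Dp16 asked whether the receptor dosage moved the adhesion genes, with the Dp16 libraries shared with the first comparison. Here 0.0158% of all tested genes were called, 3 genes in all, and each lay in the segment. EdgeR, DESeq2 and limma-voom each called 0 of the 7 adhesion genes, and in edgeR 0 had an unadjusted p under 0.05. Values on the log2 scale were -0.08 ± 0.06 for Dscam (edgeR adjusted p = 0.623), -0.09 ± 0.12 for Ncam2 (edgeR adjusted p = 0.790) and 0.03 ± 0.08 for Jam2 (edgeR adjusted p = 0.896). Their fold intervals were 0.866 to 1.03, 0.795 to 1.11 and 0.914 to 1.14. Cxadr had the largest value of the 7, 0.23 ± 0.14 (edgeR adjusted p = 0.568), with a fold interval of 0.948 to 1.45. So although Cxadr was called against WT in Dp16_2xIFNRs and not in Dp16, the duplication groups were not shown to differ. The paralogs lay at 0.10 for Dscaml1, 0.02 for Ncam1 and 0.05 for Jam3.

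**Figure D3:**
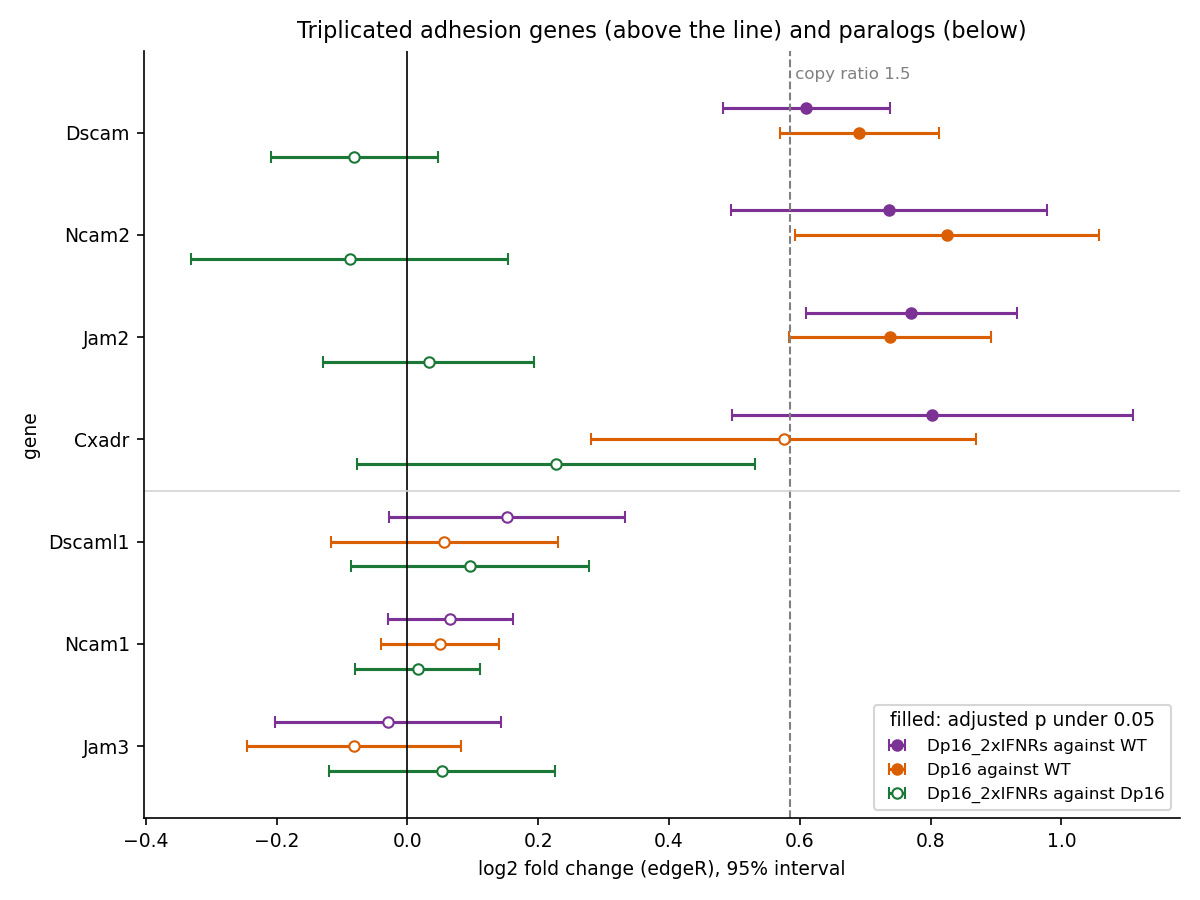
Log2 fold change (horizontal axis) of each gene with its 95% interval in the 3 comparisons, filled where the edgeR adjusted p is under 0.05. The dashed line marks the copy ratio of 1.5. The triplicated genes lie near or right of it against WT, with Cxadr in Dp16 at 0.58 left unfilled, and the paralogs lie within 0.16 of 0.

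An extra copy beside the usual pair gives a copy ratio of 1.5, and each triplicated gene was tested against it within the segment. In Dp16 against WT 1.64% of the 122 tested segment genes departed from 1.5-fold, and in Dp16_2xIFNRs against WT 4.1% did. In both comparisons edgeR called 0 of the 4 adhesion genes. In Dp16 the log2 departures were 0.24 for Ncam2, 0.15 for Jam2 and 0.11 for Dscam, each with an edgeR adjusted p = 0.422 over the segment genes, and -0.01 for Cxadr (edgeR adjusted p = 0.963). Ncam2 alone had an unadjusted p under 0.05 there (edgeR unadjusted p = 0.0425). In Dp16_2xIFNRs they were 0.22 for Cxadr (edgeR adjusted p = 0.420), 0.19 for Jam2 (edgeR adjusted p = 0.191), 0.15 for Ncam2 (edgeR adjusted p = 0.488) and 0.03 for Dscam (edgeR adjusted p = 0.878). Jam2 alone had an unadjusted p under 0.05 there (edgeR unadjusted p = 0.0266). DESeq2 and limma-voom were not run against this ratio.

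By fold change against WT, Ncam2, Jam2 and Dscam lay in the upper part of the segment in both duplication groups. Cxadr did so in Dp16_2xIFNRs and lay near the middle in Dp16. Over the 101 segment genes that averaged 1 CPM or more, the log2 fold change had a median of 0.56 in Dp16 against WT and 0.55 in Dp16_2xIFNRs against WT. In order from the highest in Dp16 against WT, Ncam2 stood at 2, Jam2 at 6, Dscam at 15 and Cxadr at 48 of 101. The places in Dp16_2xIFNRs against WT were 11 for Cxadr, 16 for Jam2, 19 for Ncam2 and 34 for Dscam. The order of the 4 genes differed between the comparisons, which share WT libraries.

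Within each mouse, the balance of a triplicated gene and its paralog was taken as a ratio of deposited RPKM, given as a description without a p. The ratio of Dscam to Dscaml1 was 0.814 to 1.02 in Dp16_2xIFNRs, 0.955 to 1.16 in Dp16 and 0.630 to 0.811 in WT, so the lowest Dp16_2xIFNRs mouse stood just above the highest WT mouse. With the deposited lengths Dscam was below Dscaml1 in 6 of 6 WT mice, and with the exon lengths in 5 of 6. In Dp16_2xIFNRs mice Dscam was below in 4 of 5 and 0 of 5, and in Dp16 mice in 1 of 6 and 0 of 6. The ratio of Ncam2 to Ncam1 was 0.431 to 0.546 in Dp16_2xIFNRs, 0.480 to 0.578 in Dp16 and 0.237 to 0.390 in WT, and Ncam1 remained the more abundant in all 17 mice. Jam2 to Jam3 was 0.734 to 1.08 in Dp16_2xIFNRs, 0.722 to 1.05 in Dp16 and 0.416 to 0.580 in WT. With the deposited lengths Jam2 was below Jam3 in 4 of 5 Dp16_2xIFNRs mice, 4 of 6 Dp16 mice and 6 of 6 WT mice. With the exon lengths this held in 0 of 5, 0 of 6 and 6 of 6. The duplication groups overlapped each other in all 3 ratios, and neither overlapped WT in any. Such ratios were not taken for other segment genes. On the log2 scale the ratios differed from WT by 0.45, 0.70 and 0.79 in Dp16_2xIFNRs and by 0.64, 0.80 and 0.81 in Dp16, in the order Dscam, Ncam2, Jam2.

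**Figure D4:**
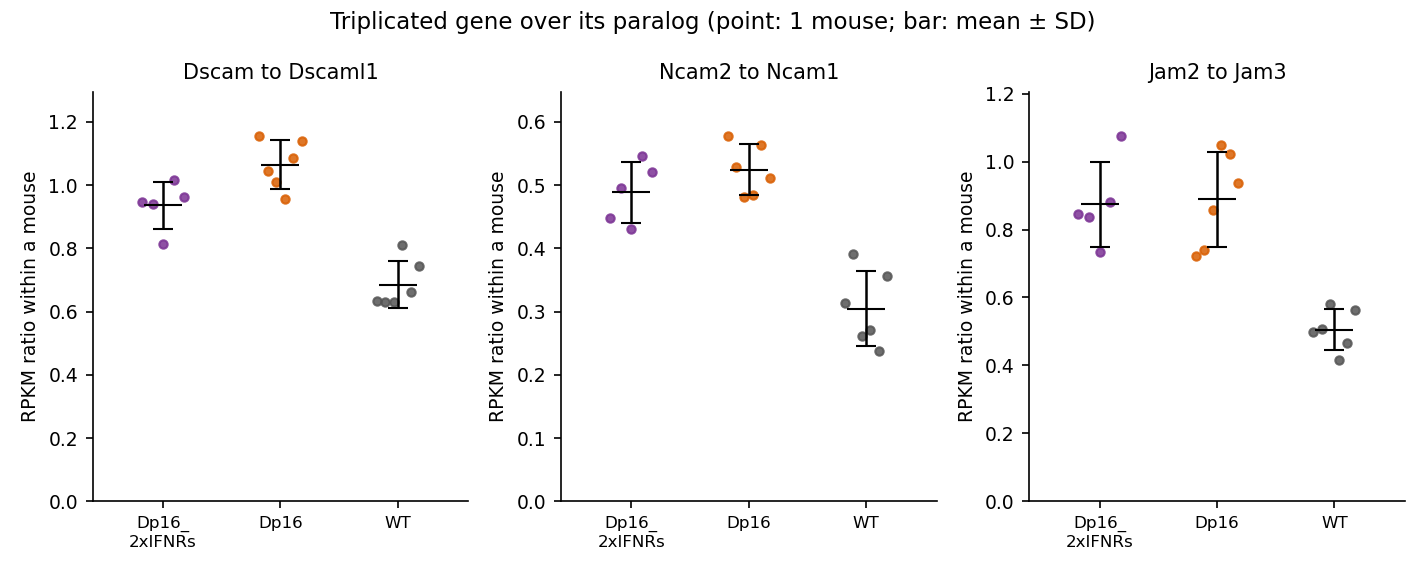
Ratio of the deposited RPKM of a triplicated gene to that of its paralog within each mouse (vertical axis from 0), with bars for mean ± SD. The WT points lie below all points of both duplication groups in each panel, by the least for Dscam to Dscaml1 (0.814 in the lowest Dp16_2xIFNRs mouse, 0.811 in the highest WT mouse).

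No difference between the sexes passed the test for the 7 genes. For females against males 0.0685% of all tested genes were called by edgeR, and 0 of the 7, with 0 at an unadjusted p under 0.05. The interaction of sex with the Dp16 effect was called for 0% of all tested genes, and for 2 of the 7 it had an unadjusted p under 0.05. These were Jam2, whose effect in females minus that in males was -0.33 (edgeR unadjusted p = 0.00955, adjusted p = 1.00), and Dscaml1 with -0.37 (edgeR unadjusted p = 0.0208, adjusted p = 1.00). Jam2 averaged 72.4 CPM in Dp16 females and 48.8 CPM in WT females, and 85.5 CPM in Dp16 males and 45.9 CPM in WT males. Dscaml1 averaged 73.8 CPM in Dp16 females and 80.7 CPM in WT females, and 84.4 CPM in Dp16 males and 71.2 CPM in WT males. The interaction with the Dp16_2xIFNRs effect was called for 0% of all genes, and 0 of the 7 had an unadjusted p under 0.05. DESeq2 and limma-voom were not run on the terms of sex.

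Cxadr was counted on a stretch shared with another triplicated gene. Its exons share 695 bases with those of Btg3, an antiproliferative gene on the opposite strand, which had 11692 counts, 66.9% of those of Cxadr. The library kit keeps strand, and the strand setting of the counting is not stated, so reads on these bases may have been dropped or given to either gene. Btg3 itself rose by 0.47 on the log2 scale in Dp16_2xIFNRs against WT (edgeR adjusted p = 0.0207) and by 0.47 in Dp16 against WT (edgeR adjusted p = 0.0184). Jam3 shares 1159 exon bases with Gm48796 on the opposite strand, which had 9.99% of its counts, and Ncam1 shares 417 with Gm11149, which had 4.27%. The other members share at most 174 exon bases with any other gene.

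Within each genotype, Cxadr was lowest in the library with the least RNA of choroid plexus. This epithelium makes cerebrospinal fluid and lies beside the hippocampus. The summed level of 7 choroid plexus markers (Ttr, Folr1, Kl, Aqp1, Otx2, Sostdc1 and Kcnj13) was 94.3 to 4087 CPM in Dp16_2xIFNRs, 61.2 to 4713 CPM in Dp16 and 57.1 to 6418 CPM in WT, with 0 of the 7 markers at a count of 0 in any library. In 3 libraries, Dp16_2xIFNRs replicate 5, Dp16 replicate 6 and WT replicate 6, the sum was under 95 CPM, and in the other 14 it was at least 2271 CPM. These 3 held the lowest Cxadr level of their groups. Cxadr was 30.9 CPM in that Dp16_2xIFNRs mouse against 33.8 to 47.4 CPM in the others of its group, 26.5 CPM in that Dp16 mouse against 31.6 to 43.3 CPM, and 18.2 CPM in that WT mouse against 18.4 to 29.7 CPM. Without the 3 libraries the Cxadr means were 43.0 ± 6.23 CPM in Dp16_2xIFNRs (n = 4), 36.3 ± 5.02 CPM in Dp16 (n = 5) and 24.2 ± 4.36 CPM in WT (n = 5), and the Dp16 mice no longer overlapped WT. In Dp16 against WT the edgeR adjusted p of Cxadr was then 0.0571, and 0.0113 with the choroid plexus level as a covariate. For Dscam, Ncam2 and Jam2 the 3 libraries were not the lowest of their groups, and Dscam was highest of its group in 2 of them. Jam3 was lowest of its group in 2 of them, the Dp16_2xIFNRs and the WT mouse, and Ncam1 was lowest in the Dp16_2xIFNRs mouse and highest in the Dp16 mouse. Ncam2 was highest in that Dp16 mouse and Jam2 in that Dp16_2xIFNRs mouse. At the other end, the library with the most marker RNA in each group held the next-lowest Cxadr level. These were Dp16_2xIFNRs replicate 1 (4087 CPM of markers, Cxadr 33.8 CPM), Dp16 replicate 2 (4713 and 31.6 CPM) and WT replicate 5 (6418 and 18.4 CPM). In Dp16_2xIFNRs this rests on a narrow margin, since replicate 3 had 4038 CPM of markers and a Cxadr level of 46.01 CPM. How many other tested genes were lowest or next-lowest in these same libraries was not counted, so neither pattern is shown to be particular to Cxadr. The part of choroid plexus in the Cxadr level was not tested.

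**Figure D5:**
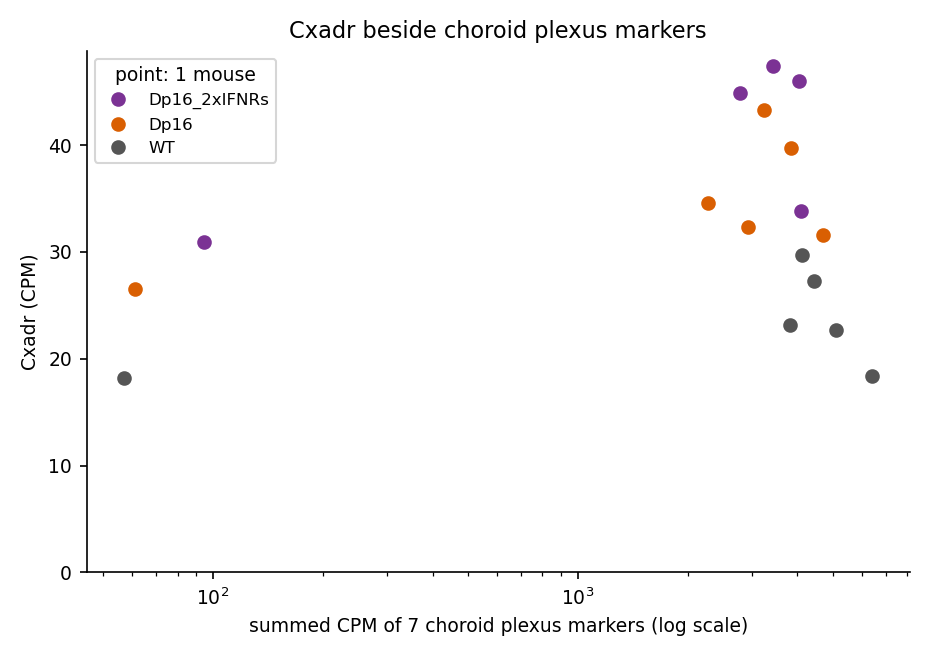
Cxadr (vertical axis, CPM from 0) against the summed CPM of 7 choroid plexus markers (horizontal axis, log scale), 1 point per mouse. The 3 libraries under 95 CPM of markers hold the lowest Cxadr value of each genotype (30.9, 26.5 and 18.2 CPM for Dp16_2xIFNRs, Dp16 and WT). The library with the most markers in each genotype holds the next-lowest value (33.8, 31.6 and 18.4 CPM). In Dp16_2xIFNRs the margin is narrow: replicate 3, at 4038 CPM of markers, holds 46.01 CPM of Cxadr.

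The sums of the other marker lists overlapped between the groups, apart from that of immature neurons between Dp16 and WT. The 6 markers of immature neurons summed to 54.4 to 67.3 CPM in Dp16_2xIFNRs, 58.4 to 64.9 CPM in Dp16 and 65.1 to 94.2 CPM in WT, and edgeR called 0 of the 6 against WT in either group, with 2 of them at an unadjusted p under 0.05 in each (of all tested genes, 17% in Dp16_2xIFNRs and 9.58% in Dp16). The 2 were the same genes in both groups and went opposite ways. Neurod1 was lower (edgeR log2 fold change -0.43 in Dp16_2xIFNRs and -0.50 in Dp16), and Draxin was higher (0.49 and 0.53). DESeq2 and limma-voom called 0 of the 6. Endothelial markers, which mark cells known to carry JAM proteins, summed to 250 to 287 CPM, 247 to 303 CPM and 257 to 297 CPM in Dp16_2xIFNRs, Dp16 and WT. Of all the markers, edgeR called 1 in a comparison with WT: Zbtb20, a transcription factor of hippocampal neurons, rose by 0.53 on the log2 scale in Dp16_2xIFNRs against WT (edgeR adjusted p = 0.0346), and was not called in 14 of 33 alternatives. Oligodendrocyte markers summed to 4723 to 6630 CPM, 5230 to 7316 CPM and 4922 to 7836 CPM in the same groups.

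Partners and relatives of the adhesion genes were taken from 8 lists. Of their 68 genes 63 were tested, and edgeR called 0 in each of the 3 comparisons. At an unadjusted p under 0.05 there were 6 in Dp16 against WT, 13 in Dp16_2xIFNRs against WT and 4 in Dp16_2xIFNRs against Dp16. These are 9.52%, 20.6% and 6.35% of the list genes, beside 9.58%, 17% and 10.5% of all tested genes. DESeq2 called 0, 3 and 0 of them, and limma-voom 0 in each. The 3 are 4.76% of the list genes, and DESeq2 called 3.33% of all tested genes in Dp16_2xIFNRs against WT, so nothing is read from their number. They were Cntn6 (edgeR log2 fold change -0.46, adjusted p = 0.0532), Cntn4 (edgeR -0.36, adjusted p = 0.0838) and Fgfr1 (edgeR 0.19, adjusted p = 0.0818), and are named because DESeq2 called them. Contactins are axonal adhesion molecules of the same superfamily, and FGFR1 is a receptor that NCAM1 binds.

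Among DSCAM-like genes and netrin partners, 10 of 10 were tested, with a median log2 fold change of 0.01 in Dp16 against WT (all tested genes -0.01). Pak1, a kinase downstream of DSCAM, lay at 0.03 there and the netrin receptors Unc5a and Unc5c at 0.07 and -0.03. Of the partners and polysialylation genes of NCAM, 8 of 9 were tested with a median of 0.04. Sptbn1, a spectrin of the membrane skeleton, lay at 0.06, Gap43, a growth cone protein, at 0.07 and Fyn, a kinase bound to NCAM1, at 0.03. The L1 and contactin families, 10 of 10 tested, had a median of 0.08, with Cntn1 at 0.10, Nrcam at 0.12 and Nfasc at 0.06.

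Junctional relatives of JAM and CXADR, 6 of 8 tested, had a median of 0.01 in Dp16 against WT, with Igsf11 at 0.06, Clmp at -0.03 and Esam at 0.05. The integrins that bind JAM proteins, 6 of 6 tested, had a median of 0.07 and lay between -0.06 and 0.82. Of these, Itgb1 lay at -0.02, Itga4 at 0.11 and Itgam at 0.02. Scaffolds with PDZ domains and polarity proteins, some of which bind the tails of JAM and CXADR, had a median of 0.00 over 15 of 15. They lay between -0.82 and 0.13, with Prkcz at 0.01, Magi2 at 0.10 and Tjp1, a tight junction scaffold, at 0.13. In Dp16_2xIFNRs against WT the medians of these 6 lists lay between -0.05 and 0.08, against 0.00 for all tested genes. Single genes of the 8 lists lay between -0.81 and 1.21 there, and edgeR called 0 of them.

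Position on the chromosome was described with 2 further lists. Of 4 other junction genes of the segment, 2 passed the filter on low counts, both under 1 CPM on average: Igsf5 lay at 0.18 on the log2 scale (edgeR adjusted p = 0.903) and Cldn14 at 0.41 (edgeR adjusted p = 0.706) in Dp16 against WT. In Dp16_2xIFNRs against WT they lay at -0.08 (edgeR adjusted p = 0.935) and 0.00 (edgeR adjusted p = 0.998). Immunoglobulin adhesion genes of chromosome 16 outside the segment, 8 of 8 tested, had a median of 0.08 in Dp16 against WT with 7 of 8 positive, and 0.08 in Dp16_2xIFNRs against WT with 6 of 8 positive, and edgeR called 0 of them in either. The medians of all tested genes were -0.01 and 0.00. The L1 and contactin list, on other chromosomes, had medians of 0.08 and 0.03, with 7 of 10 positive in each. An effect of position was not tested. Lsamp, which guides limbic axons, lay at 0.11 (edgeR adjusted p = 0.594), Cd47, a brake on phagocytosis, at 0.02 and Alcam, an adhesion molecule of growing axons, at 0.10.

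After genotype and sex were taken out, the genes most like each member across the 17 libraries were named from 13662 genes, as a description. Dscam was most like Rabgap1 (Pearson r = 0.922), Ttc3 (0.912), which lies in the segment, and Lsamp (0.902). Ncam2 was most like Csrnp3 (0.928), the neuregulin receptor Erbb4 (0.925) and Kidins220 (0.916). Jam2 was most like Slc4a4 (0.913), Ndrg2 (0.895) and Pla2g7 (0.894), of which Slc4a4 and Ndrg2 are known for high levels in astrocytes. Cxadr was most like Abhd18 (0.930), the channel kinase Trpm7 (0.924) and Hars2 (0.914). Of the paralogs, Dscaml1 was most like Myo5b (0.905), Syt17 (0.889) and Arid1b (0.880). Ncam1 was most like Lifr (0.887), Zc3h13 (0.862) and Pde4dip (0.841). Among the genes most like Jam3 were Six3 (0.909), a transcription factor of the developing forebrain, and Cacng5 (0.907). The libraries share depth and dissection, which such values also carry.

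Between the 7 genes themselves, the residual r was 0.61 for Dscam with Ncam2 and 0.58 for Dscam with Dscaml1, the highest of the 21 pairs. Jam2 and Cxadr had -0.40, and Jam3 had -0.53 with Dscam and -0.52 with Dscaml1, the lowest of the pairs. Ncam2 with Ncam1 had 0.44 and Jam2 with Jam3 -0.16, over 17 libraries in each case.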

How the data were processed

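The authors deposited raw counts per gene and RPKM for the same 17 libraries. The submitters' processing notes name HISAT2 2.1.0, HTSeq 0.6.1, SAMtools 1.5, FastQC 0.11.5 and bcl2fastq, with the genome build GRCm38. Gene positions were taken from GENCODE M21. The deposited RPKM imply 1 length per gene in all libraries, and how that length was defined is not given in the sources used here.

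EdgeR 4.0.16 (R 4.3.3) was used on the counts. The filter filterByExpr with a minimum count of 10 left 18983 genes, 122 of them in the segment, TMM set the scaling, and all 17 libraries entered 1 quasi-likelihood fit with terms for genotype and for sex (13 residual degrees of freedom, common biological coefficient of variation 14.1%). A gene was called at a Benjamini-Hochberg adjusted p under 0.05 over all tested genes. Departure from 1.5-fold used an offset and was adjusted over the segment genes. In simulated data for Dp16 against WT with 18764 genes, 80.5% of 87 genes changed 1.5-fold and 94.7% of 113 changed 2-fold were called. There were 7 false calls. In the real data 50.8% of the tested segment genes were called in this comparison, so the simulated shares need not hold for triplicated genes. Each library is a different mouse. The 95% intervals give the uncertainty of a fold change between groups, estimated from the spread between these mice, and are not ranges of mice.

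The 7 genes, the lists and the alternatives were chosen with earlier results of these data known. Named beside the 7 were the 3 genes most like each by residual log2 CPM (prior count 2, at least 1 CPM), and from each list up to 3 genes of highest CPM. Of the genes this rule names, 1 is not reported here. Alternatives used DESeq2 1.42.0 and limma 3.58.1, other scaling, filters and covariates, RPKM with 0.1 or 1 added, a replicate block, and each library left out in turn. The length of all exons was added after seeing the data.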

Additional observations from a re-analysis of the deposited data

How the results depend on the processing

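The counts of adhesion genes called were the same or 1 higher under the 33 alternatives: 3 to 4 of 7 in Dp16 against WT, 4 in Dp16_2xIFNRs against WT and 0 in Dp16_2xIFNRs against Dp16. Leaving out 1 library in turn gave 3 to 4, 4 and 0. Cxadr in Dp16 against WT was called without a filter on low counts (adjusted p = 0.00142), by DESeq2 (0.00652), with the choroid plexus level as a covariate (0.0113), with only the 2 groups compared (0.0459) and without WT replicate 4 (0.04997, just under the threshold). With a replicate block it was called as well (adjusted p = 0.0103), which gave 4, 4 and 0 called members. The sample numbers were not taken as pairs in the main fit, and some join mice of different sex. Deviations of libraries with the same number had a mean correlation of 0.00809 over 16 pairs (-0.364 to 0.556). Over 80 others the mean was 0.00385 (-0.627 to 0.732), and 0 libraries correlated best with their own number. These means cannot exclude shared litters, which the labels do not give.

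Changes of sign fell on values near 0. Dscaml1 in Dp16 against WT had a log2 fold change of -0.011 with the identifier series as a covariate and -0.0093 to 0.096 with 1 library left out. With 1 library left out, Jam3 in Dp16_2xIFNRs against WT lay at -0.066 to 0.040, and in Dp16_2xIFNRs against Dp16 Jam2 lay at -0.032 to 0.079 and Ncam1 at -0.0098 to 0.031. The departure from 1.5-fold lay at -0.075 to 0.066 for Cxadr in Dp16 against WT and at -0.016 to 0.056 for Dscam in Dp16_2xIFNRs against WT, and 0 members departed under any of 19 alternatives. In Dp16_2xIFNRs against WT the L1 and contactin list had 0 to 2 genes called, other than 0 in 11 of 33 alternatives, and the NCAM partner list 0 to 1, other than 0 in 2. The number of all genes called moved more, 70 to 217 in Dp16 against WT, 101 to 633 in Dp16_2xIFNRs against WT and 2 to 14 in Dp16_2xIFNRs against Dp16, with the highest counts of the first 2 from DESeq2. The cause was not tested.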
